A study of Mus musculus with 13 samples.

Results

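The loci described here are 4 genes of the muscle cell surface, Tmem8c, Cdh15, Itga7 and Cav3, read through the H3K27ac peaks that fell in a fixed window around each gene in C2C12 cells. The windows were set by position alone, on the mouse build mm9. They were chr2:26900000-26950000 for Tmem8c, chr8:125345000-125410000 for Cdh15, chr10:128350000-128420000 for Itga7 and chr6:112390000-112450000 for Cav3, or 50, 65, 70 and 60 kb. Together they held 362 of the 1117291 peaks in the 12 libraries used.

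C2C12 is a mouse myoblast line that stops dividing, fuses and forms myotubes when serum is withdrawn. Wild-type cells (WT) were sampled 24 h before the change to differentiation medium with 2% horse serum (-24 h), on the change itself (0 h) and then after 6, 12, 24, 48 and 72 h. A further 5 lines, all edited with CRISPR/Cas9 and all sampled at 48 h, were Myod1_KO, in which MyoD expression was knocked out, and 4 lines in which regions the submitters call hotspots were deleted. Of these, H1_KO lacked H1 and H3_KO lacked H3, while H23_KO was made by removing H3 from cells already without H2, and H34_KO by removing H3 from cells already without H4. The edited lines are called here the Myod1 knockout and the H1, H3, H23 and H34 lines, and the labels do not say whether each was 1 clone. The antibody was Abcam ab4729 throughout. Each condition had 1 library, so no test between conditions was possible and every value describes single libraries. A CRISPR control library, also of 48 h, was not analysed here. The wild-type 48 h library took its place.

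Myoblasts align, adhere and fuse into multinucleated fibres, and the plasma membrane is then rebuilt into the sarcolemma. Tmem8c, also called myomaker and listed as Mymk in RefSeq, encodes a membrane protein that myoblasts need in order to fuse. Cdh15 encodes M-cadherin, a calcium-dependent adhesion protein of myoblasts. Itga7 encodes the α7 chain of the main laminin receptor of skeletal muscle, and Cav3 encodes caveolin-3, the structural protein of muscle caveolae. H3K27ac is an acetylated form of histone H3 that marks active promoters and enhancers. MyoD, the product of Myod1, is the transcription factor that opens the muscle programme, and it binds the DNA motif called the E-box.

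Of the 4 genes, the RefSeq promoter table held Cdh15 and Cav3. Only their promoters could therefore be shown. Peaks were listed in all 12 libraries at Cdh15, as at Itga7, and in none at Cav3. Each sequence is the 250 bases before the transcription start, on the plus strand of GRCm38.p6, which is not the build of the peaks. No peak can therefore be placed on these bases. Capitals mark the E-box CANNTG, which reads the same way on both strands.
Cdh15 promoter, chr8:122848124-122848373: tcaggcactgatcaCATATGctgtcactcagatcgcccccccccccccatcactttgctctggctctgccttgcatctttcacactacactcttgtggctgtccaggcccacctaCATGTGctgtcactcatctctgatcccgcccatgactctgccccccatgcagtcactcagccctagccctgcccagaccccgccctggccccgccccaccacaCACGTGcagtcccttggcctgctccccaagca
Cav3 promoter, chr6:112459255-112459504: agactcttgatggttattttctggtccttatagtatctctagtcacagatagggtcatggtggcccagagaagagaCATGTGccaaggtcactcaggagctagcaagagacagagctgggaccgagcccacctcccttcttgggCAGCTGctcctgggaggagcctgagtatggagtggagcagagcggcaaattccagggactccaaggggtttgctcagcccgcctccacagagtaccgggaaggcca

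The Cdh15 promoter held 3 E-boxes, which began 236, 135 and 32 bases before the start. The Cav3 promoter held 2, which began 174 and 106 bases before it. The one at 106 bases reads CAGCTG, which is one of the E-box forms that MyoD is known to bind, and these letters occurred in 13.0% of the 32851 promoters of the table, searched over the same 250 bases on both strands. Any CANNTG occurred in 66.2% of them. The other letters searched were CAGGTG, present in 17.2% of all promoters, the forkhead core GTAAACA (3.17%), a pair of MEF2-type sites (0.14% and 0.103%) and the AP-1 site TGANTCA (6.75%). None of these 5 was in either promoter.

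The 12 peak lists differed in length and reach. Wild-type lists held 69251 to 101331 peaks over 24.5 to 45.4 Mb, the hotspot lines 103134 to 137960 peaks over 58.4 to 81.5 Mb, and the Myod1 knockout 55585 peaks over 18.3 Mb. The lowest −log10 p of the authors' lists was 3.01 to 3.03 in the hotspot lines, 4.13 in wild type at 48 h and 4.02 in the Myod1 knockout. The hotspot lists thus held peaks with a lower −log10 p than any in the wild-type 48 h list, and read depth was unknown. An overlap of 1 base was enough for peaks of 2 lists to count as the same.

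The Tmem8c window had no peak in 3 of the 12 libraries: wild type at -24 h, the H34 line and the Myod1 knockout. In wild-type cells the 7 libraries from -24 to 72 h had 0, 3, 2, 6, 2, 7 and 7 peaks. They covered 0, 1417, 648, 1861, 337, 3475 and 1840 bases in the same order. The first peak was thus present at 0 h, when the medium was changed, and the window was marked at all 6 times from then on. With the window widened by 20 kb on each side, the first peak was at -24 h and all 12 libraries had one. The covered length did not follow time in one direction, with less at 6 and 24 h than at 0 h. An absent peak at -24 h followed by a peak at each of the 6 later times occurred in 0.723% of 51474 tiles of 50 kb cut across the genome. That pattern was taken from the window itself, and tiles without any peak were counted, so the share is not a test.

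The hotspot lines divided at this window. The H1 line had 11 peaks over 9063 bases, the H3 line 9 over 6184 bases and the H23 line 6 over 2484 bases, against 7 over 3475 bases in wild type at 48 h. The H34 line had none. Genome-wide the H34 list covered 1.61 times as many bases as the wild-type list, and the H1, H3 and H23 lists 1.55, 1.29 and 1.79 times. In the Tmem8c window the H1 and H3 ratios were higher, at 2.61 and 1.78, and the H23 ratio was lower, at 0.715. A peak in wild type at 48 h and in the H1, H3 and H23 lines with none in the H34 line and the Myod1 knockout was found in 168 of the 51474 tiles, or 0.326%. This pattern too was taken from the window itself, and tiles without any peak were counted, so the share is not a test.

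**Figure D1:**
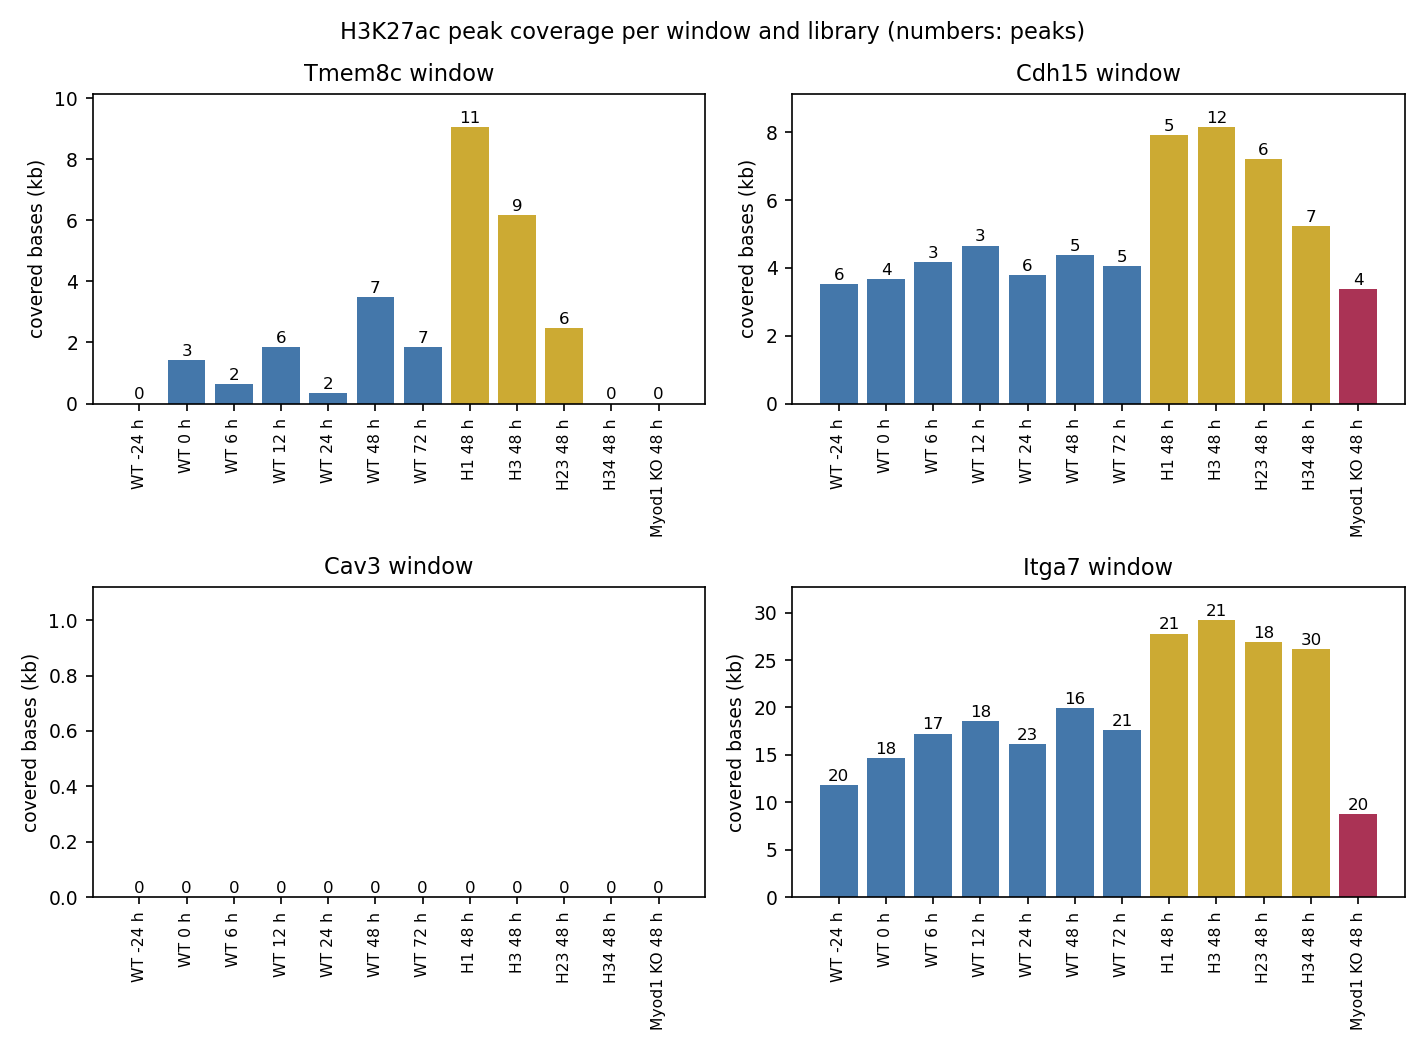
Bases covered by H3K27ac peaks (kb, linear axis from 0) in each window and library, with the number of peaks printed over each bar. Wild-type libraries are blue, hotspot lines yellow and the Myod1 knockout red, with 1 library per bar and no error bar; the Tmem8c bars are at 0 in wild type at -24 h, the H34 line and the Myod1 knockout, and all 12 Cav3 bars are at 0.

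Peaks were listed on both sides of the empty Tmem8c window. In the 250 kb on either side of it, the H34 list had 36 peaks and the Myod1 list 21, against 21 in wild type at 48 h and 26 at -24 h. The nearest peak above the window was 2.05 kb away in the H34 line and 2.54 kb away in the Myod1 knockout. Below the window it was 33.7 and 34 kb away, so the stretches without a peak were 85.8 and 86.6 kb long. The distance below the window was similar in some libraries with Tmem8c peaks. It was 33.9 and 34 kb in wild type at 24 and 72 h and 33.5 kb in the H3 line. It was shorter in wild type at 0, 6 and 12 h (16.5, 16.6 and 16.6 kb) and at 48 h (7.91 kb). The H1 and H23 lines also had shorter distances, 7.98 and 16.6 kb. At -24 h, when the wild-type window was also empty, the stretch was 85.4 kb. Chromosome 2 held 8.20% of all H34 peaks and 8.13% of the wild-type peaks.

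The widest region of the window, obtained by merging overlapping peaks of all libraries, was chr2:26925340-26927647, 2308 bases long. It had a peak in 9 libraries and in every library with any peak in the window. Its wild-type 48 h peak was also the strongest of the window, with a −log10 p of 19.4, which stood at the 70.7th percentile of that list. In the other wild-type lists the strongest Tmem8c peak stood at the 74.6th percentile (0 h), the 48.5th (6 h), the 51.7th (12 h), the 57.9th (24 h) and the 82.9th (72 h). The corresponding peak stood at the 90.2nd percentile in the H1 line, the 89.8th in the H3 line and the 73.4th in the H23 line. Its summit lay within 62, 29 and 69 bases of the wild-type summit in those 3 lines, so the listed peaks were centred on the same place.

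A second Tmem8c region, chr2:26931246-26932816, was 1571 bases long and was listed in 4 libraries, wild type at 48 and 72 h and the H1 and H3 lines. Its wild-type 48 h peak had a −log10 p of 18.2. No earlier library had a peak there. The region chr2:26924135-26925276, of 1142 bases, had a peak in wild type at 48 h and in the H1, H3 and H23 lines only. One more region was singled out after its values were seen. At chr2:26913787-26914804 a peak was listed at 0, 6, 12, 24 and 72 h and in the H1, H3 and H23 lines, 8 libraries in all, but not in wild type at 48 h. The wild-type 48 h list thus lacked a peak that the lists of 24 and 72 h and of 3 lines at 48 h held.

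**Figure D2:**
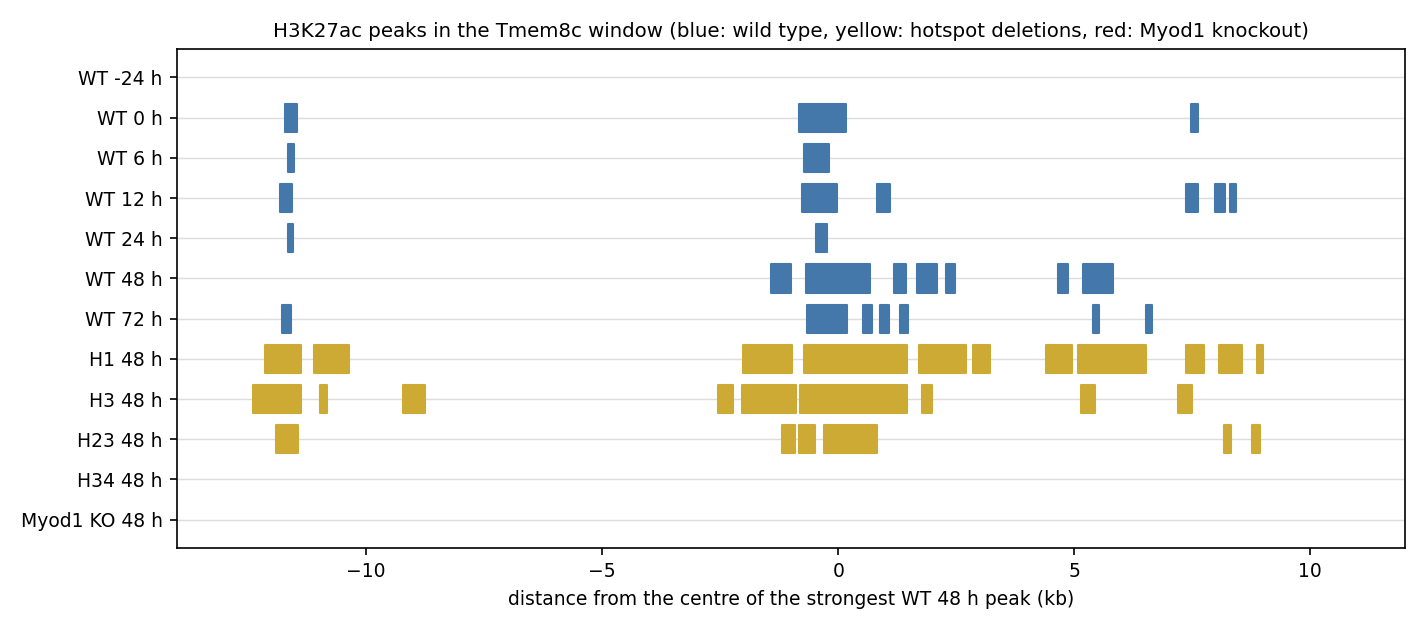
Peaks of each library in the Tmem8c window, drawn to scale by distance (kb) from the centre of the strongest wild-type 48 h peak, with 1 row per library. No peak lay in the part of the window outside the drawn span; the rows of wild type at -24 h, the H34 line and the Myod1 knockout are empty, and the other 9 share the central region.

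Each of the 7 wild-type 48 h peaks of the Tmem8c window was then followed into the edited lines. None of the 7 lacked a peak in the H1 line, where 16.2% of all 71281 wild-type peaks did. In the H3 line 2 of 7 had none, against 26.0% of all peaks, and in the H23 line 5 of 7, against 18.2%. In the H34 line all 7 had none (100%, exact 95% interval 59.0 to 100), against 18.0%, and in the Myod1 knockout all 7 had none, against 57.5%. The H3 count was 4 of 7 at a stricter threshold (q under 0.001), 3 of 6 with every list cut to its 55585 strongest peaks, and 0 of 2 with peaks within 1 kb joined. Intervals cover counting error only, and neighbouring peaks of one locus are not independent.

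The Tmem8c peaks were weaker than many others, with a −log10 p of 6.26 to 19.4. Among the 47404 wild-type peaks of the genome in that range, 20.9% had no peak in the H1 line, 33.2% in the H3 line, 23.3% in the H23 line, 23.1% in the H34 line and 70.4% in the Myod1 knockout. Read against these shares, the absence in the Myod1 knockout was that of most peaks in this range, while the absence in the H34 line was that of a minority. The range takes in most of the 71281 wild-type peaks. The median Tmem8c peak stood at the 30.5th percentile, so strength was not matched. Both peaks without a counterpart in the H3 line were narrow, 191 and 204 bases. The 2 that had a counterpart in the H23 line were the strongest, at 1348 bases, and one of 431 bases. A 50 kb tile with a wild-type 48 h peak and none in the H34 line made up 2.75% of the genome's tiles, and one with none in the Myod1 knockout 9.74%. Both shares are of all tiles, also those without a wild-type peak.

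Wild-type libraries also differed from each other at this locus. Of the 7 peaks at 48 h, 4 had no peak at 72 h (57.1%, 18.4 to 90.1), where 50.8% of all peaks had none, and all 7 had none at -24 h, where 48.9% of all peaks had none. The Jaccard index, which divides the bases covered in both lists by those covered in either, was 0 to 0.306 between 48 h and the other wild-type times in this window and 0.312 to 0.394 over the genome. Each of the 6 pairs had a lower index at Tmem8c than over the genome; pairs without the 48 h library were not computed.

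The Cdh15 window had peaks in all 12 libraries, first at -24 h, and the wild-type peaks merged into 2 regions that lay side by side. A peak in all 12 libraries was found in 23.7% of 39592 tiles of 65 kb. The wild-type libraries had 6, 4, 3, 3, 6, 5 and 5 peaks from -24 to 72 h, over 3521, 3679, 4173, 4656, 3792, 4388 and 4049 bases. The largest and smallest of these covered lengths differed by 1.32 times. Over the genome the covered length ranged from 24.5 to 45.4 Mb in the same libraries. The marked length at Cdh15 therefore varied less across the 7 times than the lists did as a whole.

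With the peaks of all 12 libraries merged these became 1 block, chr8:125372273-125378059, of 5787 bases. Its strongest wild-type 48 h peak had a −log10 p of 84.1, at the 97.9th percentile. In the other wild-type lists the strongest Cdh15 peak stood at the 95.2nd percentile at -24 h and between the 97.7th and 99.3rd percentile from 0 h on. The strongest peak was at the 99.8th percentile in the H1 line, the 99.7th in the H3 line, the 96.7th in the H23 line, the 95.6th in the H34 line and the 90.4th in the Myod1 knockout. The Myod1 knockout thus had the lowest place of the 12, and ranked 5337th of 55585 in its own list.

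**Figure D3:**
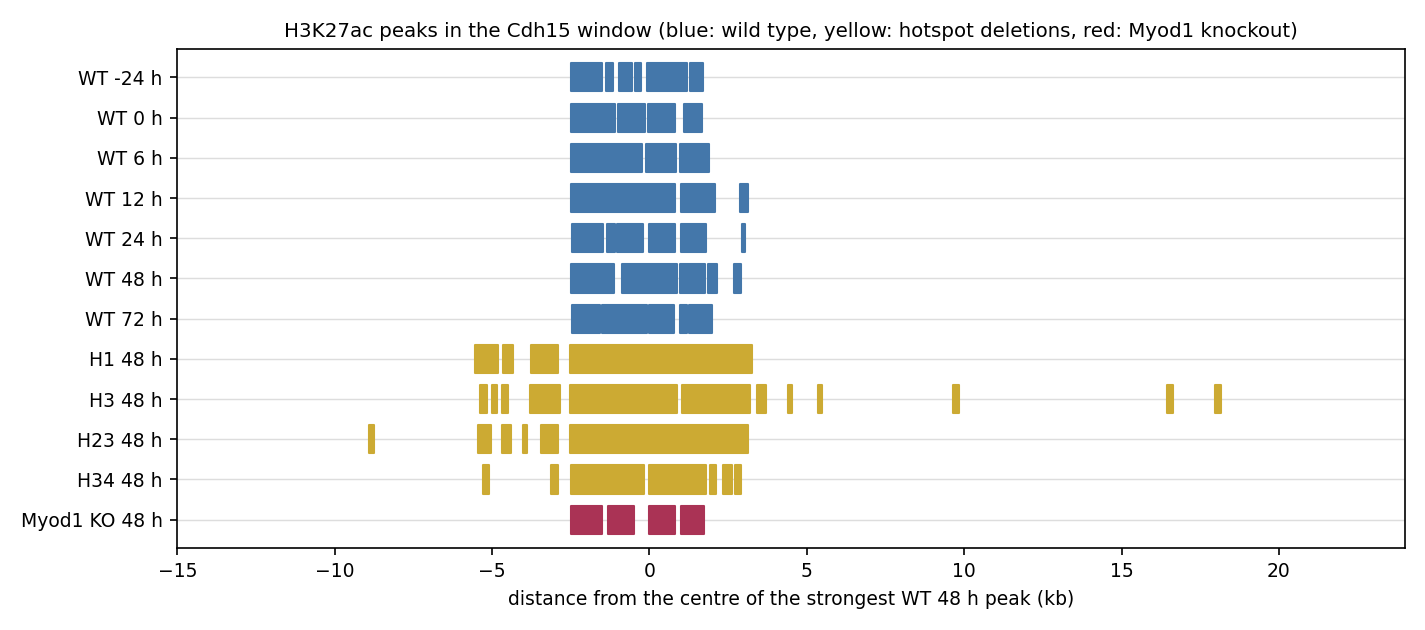
Peaks of each library in the Cdh15 window by distance (kb) from the centre of the strongest wild-type 48 h peak, with 1 row per library. The H1 peak chr8:125359499-125359686 lies just outside the drawn span and is not shown. All 12 rows share the central block of 5787 bases. A further 12 regions, the undrawn one among them, had peaks in yellow rows alone.

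Coverage of the block by single bases was also followed. A peak covered 2859 bases in all 7 wild-type libraries, and all 2859 were covered in all 4 hotspot lines too. Of these, 2611 were covered in the Myod1 knockout and 248 were not. Of the 4388 bases covered in wild type at 48 h, 3103 (70.7%) were covered in the Myod1 knockout. Only 2 bases of the Myod1 peaks lay outside every wild-type peak of the window.

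The Myod1 knockout had 4 Cdh15 peaks over 3373 bases, 0.769 times the wild-type 48 h length, where the genome-wide ratio was 0.403. Of the 5 wild-type 48 h peaks, 2 had no peak in the knockout (40.0%, 5.27 to 85.3), and among all wild-type peaks in the same range of −log10 p, 10.8 to 84.1, the share was 42.9%. The 2 were the weakest, with a −log10 p of 10.8 and 13.9, and the 3 that had one reached from 25.3 to 84.1. With peaks within 1 kb joined, the window had 1 wild-type peak, and it had a counterpart in the knockout. None of the 4 knockout peaks lacked a wild-type 48 h peak, against 25.5% of all knockout peaks, and none lacked a wild-type peak at any time, against 11.3%. The 4 are neighbours at the same locus and were not matched in strength or width with all knockout peaks. The Jaccard index of the knockout was 0.666 with wild type at 48 h and 0.759 with wild type at -24 h in this window. Over the genome these were 0.279 and 0.321.

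None of the 5 wild-type Cdh15 peaks lacked a peak in any hotspot line. Among the 41593 wild-type peaks with a −log10 p between 10.8 and 84.1 the shares without one were 7.15% (H1), 14.8% (H3), 9.51% (H23) and 9.17% (H34). A count of 0 in 5 therefore says little about the locus. The range is wide and the median Cdh15 peak stood at the 79.2nd percentile, so strength was not matched. With every list cut to its 55585 strongest peaks, 2 of the 5 had none in the H34 line. The H1 line had 5 peaks over 7917 bases, the H3 line 12 over 8161, the H23 line 6 over 7219 and the H34 line 7 over 5224, or 1.80, 1.86, 1.65 and 1.19 times the wild-type 48 h length. The first 3 of these libraries lay above every wild-type library by more than the wild-type range. Peaks with no wild-type peak at any of the 7 times made up 4 of 5 in the H1 line, 10 of 12 in the H3 line, 5 of 6 in the H23 line and 3 of 7 in the H34 line. Over the genome such peaks made up 37.7%, 31.9%, 42.9% and 38.4%. They formed 12 regions, of which 9 were in 1 line each, and bases covered in all 4 lines but in no wild-type library came to 631. The weakest of the line peaks with no wild-type peak had a −log10 p of 4.74 (H1), 4.63 (H3), 5.28 (H23) and 4.01 (H34). The lowest value of the whole wild-type 48 h list was 4.13, and those of the hotspot lists were 3.01 to 3.03. The part of this wider reach in the result was not tested.

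The place of the strongest Cdh15 summit differed between wild type and the edited lines. In wild type at 48 h it lay at chr8:125375299. In the H1, H3, H23 and H34 lines and the Myod1 knockout the strongest summit lay 2840, 2853, 2861, 2807 and 2816 bases below it, so the 5 lines shared 1 place. Wild type at 48 h also had a peak over that place, chr8:125372319-125373670, with a −log10 p of 76.2 against the 84.1 of its strongest. The summit of that peak lay at chr8:125373105, apart from the place shared by the lines, so 76.2 is not the value at that place. In the H1, H3 and H23 lines 1 listed peak spanned both places, and in the H34 line and the Myod1 knockout they lay in separate peaks. Lists with 5 columns gave no summit, so the other wild-type times could not be compared.

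The Itga7 window was the most heavily marked of the 4 for its length. At 48 h wild-type peaks covered 28.5% of it, against 6.95% of the Tmem8c window and 6.75% of the Cdh15 window. All 12 libraries had a peak, first at -24 h, as did 24.7% of 36765 tiles of 70 kb. The wild-type libraries had 20, 18, 17, 18, 23, 16 and 21 peaks from -24 to 72 h, over 11806, 14626, 17246, 18581, 16115, 19975 and 17574 bases. The length was lowest at -24 h and highest at 48 h, and genome-wide the covered length was highest at 48 h too. In all libraries other than wild type at -24 h and the Myod1 knockout, 1 peak crossed the lower edge of the window.

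The Itga7 window had 3 regions with a peak in all 12 libraries. Most of the marked bases lay in 2 neighbouring ones, and the remaining one crossed the lower edge of the window. The widest, chr10:128362931-128377165, was 14235 bases long. The one beside it, chr10:128353294-128362580, was 9287 bases long and held the strongest wild-type 48 h peak, with a −log10 p of 105 at the 98.9th percentile. Across the wild-type lists the strongest Itga7 peak stood between the 98.9th and the 99.9th percentile. In the hotspot lines it stood at the 99.3rd percentile or above, and in the Myod1 knockout at the 96.3rd. In the H1 and H3 lines the strongest peak was the one that crossed the lower edge, with a summit outside the window.

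**Figure D4:**
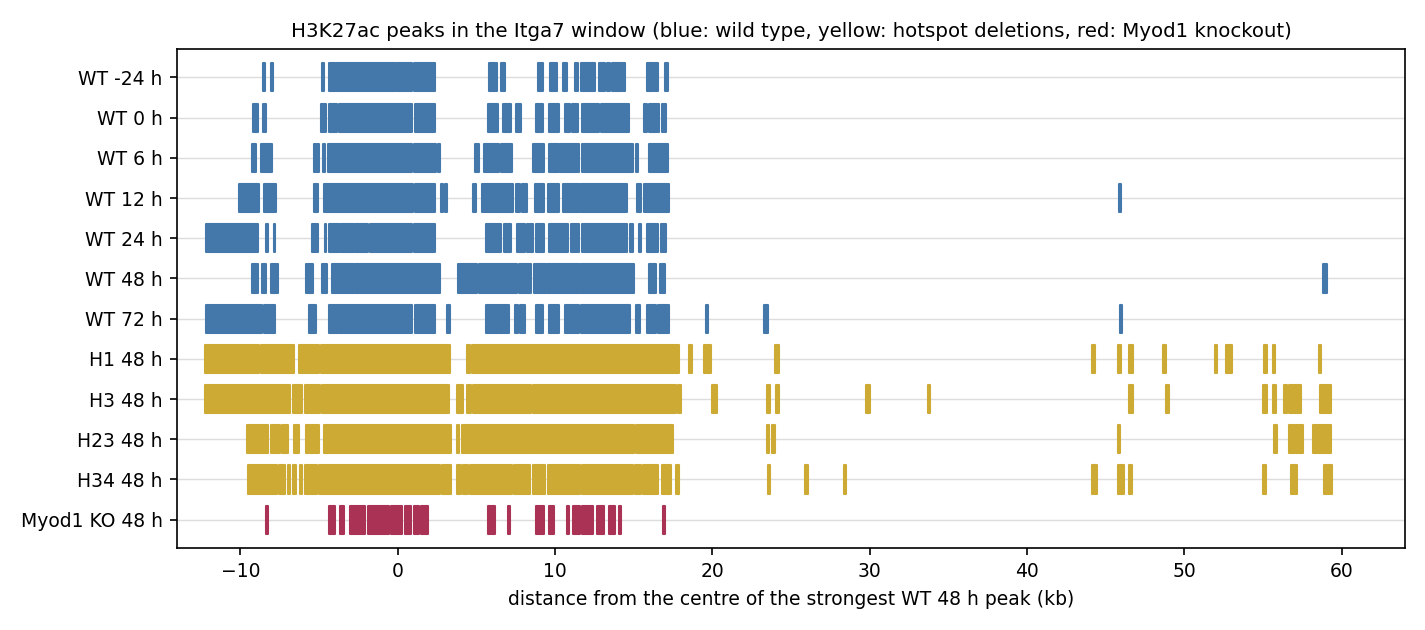
Peaks of each library in the Itga7 window by distance (kb) from the centre of the strongest wild-type 48 h peak, with 1 row per library; no peak lay outside the drawn span, and the leftmost peaks of 10 rows run past the window's lower edge. The Myod1 knockout row has 20 short peaks inside the same blocks, covering 8743 bases against 19975 in the wild-type 48 h row.

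In the Myod1 knockout the Itga7 window had as many peaks as at -24 h, 20, over fewer bases. The 20 peaks covered 8743 bases, the least of the 12 libraries, against 11806 at -24 h and 19975 at 48 h in wild type. With peaks within 1 kb joined it was 13368 bases against 23483 at 48 h. The ratio to wild type at 48 h was 0.438 and that of the genome 0.403. The widest knockout peak was 1332 bases long, where the widest wild-type 48 h peak was 5371. Of the 16 wild-type 48 h peaks, 8 had no peak in the knockout (50%, 24.7 to 75.3). Among the 58468 wild-type peaks with a −log10 p between 8.0 and 105 the share was 52.1%. That range takes in most of the 71281 peaks, and the median Itga7 peak stood at the 72.6th percentile, so strength was not matched. With peaks joined, 1 of 4 wild-type peaks had none in the knockout.

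The 8 Itga7 peaks without a knockout counterpart had a −log10 p of 8.0 to 22.9 and the 8 with one of 8.92 to 105, so the ranges overlapped. All 20 knockout peaks overlapped a wild-type 48 h peak, where 25.5% of all knockout peaks overlapped none. The 20 are neighbours at the same locus, where wild-type 48 h peaks covered 28.5% of the window. They were not matched in strength or width with all knockout peaks. Of the 19975 wild-type bases, 8294 (41.5%) were covered in the knockout. The Jaccard index of the knockout was 0.406 with wild type at 48 h and 0.551 with wild type at -24 h, against 0.279 and 0.321 over the genome.

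At Itga7, the number of peaks listed was 21 (H1), 21 (H3), 18 (H23) and 30 (H34), over 27789, 29200, 26877 and 26147 bases. All 4 lengths were above every wild-type library, at 1.39, 1.46, 1.35 and 1.31 times the 48 h length, and below the genome-wide ratios in the H1, H23 and H34 lines. A wild-type 48 h peak with no peak in the line was found once, in the H1 line, and in no other hotspot line. Among all wild-type peaks with a −log10 p between 8.0 and 105, not matched in strength within that range, the shares were 12.1% (H1), 21.3% (H3), 14.5% (H23) and 14.2% (H34). With lists of equal length, 2 of 15 had none in the H23 line, 1 of 15 in the H34 line and 0 of 15 in the H1 line. The peak in question was the peak of 216 bases within chr10:128417383-128418558, a region of 1176 bases near the upper end of the window. That region had a peak in wild type at 48 h and in all 4 hotspot lines, the H1 peak lying beside the wild-type one, and none at any other time or in the Myod1 knockout. The H34 line, which had no Tmem8c peak, had 30 Itga7 peaks, the most of the 12 libraries.

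The 7 wild-type lists were merged into 133768 regions, of which 30 lay in the windows, 13 at Tmem8c, 2 at Cdh15 and 15 at Itga7. Stable regions, with a peak at all 7 times, numbered 7 of the 30, 1 at Cdh15 and 6 at Itga7, against 16.8% of all regions. Their median width was 4257 bases, where that of all stable regions was 1184. Late-gained regions, absent at -24 and 0 h and listed at each of 24, 48 and 72 h, numbered 1, chr10:128353366-128354222 at Itga7, first listed at 6 h, against 1.10% of all regions. Early-lost regions, with the reverse pattern, numbered 0, against 3.48% of all. When only 48 and 72 h were asked to have a peak and -24 and 0 h to have none, 3 regions qualified, 2 at Tmem8c and 1 at Itga7, against 2.46% of all regions. Counts this small do not separate the windows from the genome.

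The Cav3 window had no peak in any of the 12 libraries. No first time, covered length or state in the knockouts can therefore be given for it. Of 42895 tiles of 60 kb across the genome, 47.2% had no peak in any library, so an empty tile of this size was common over the genome as a whole. Tiles around genes were not counted apart. The nearest peaks of any library lay 17.7 kb below the window and 186 kb above it. Without read depth, an empty list gives no limit on the acetylation there.

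**Figure D5:**
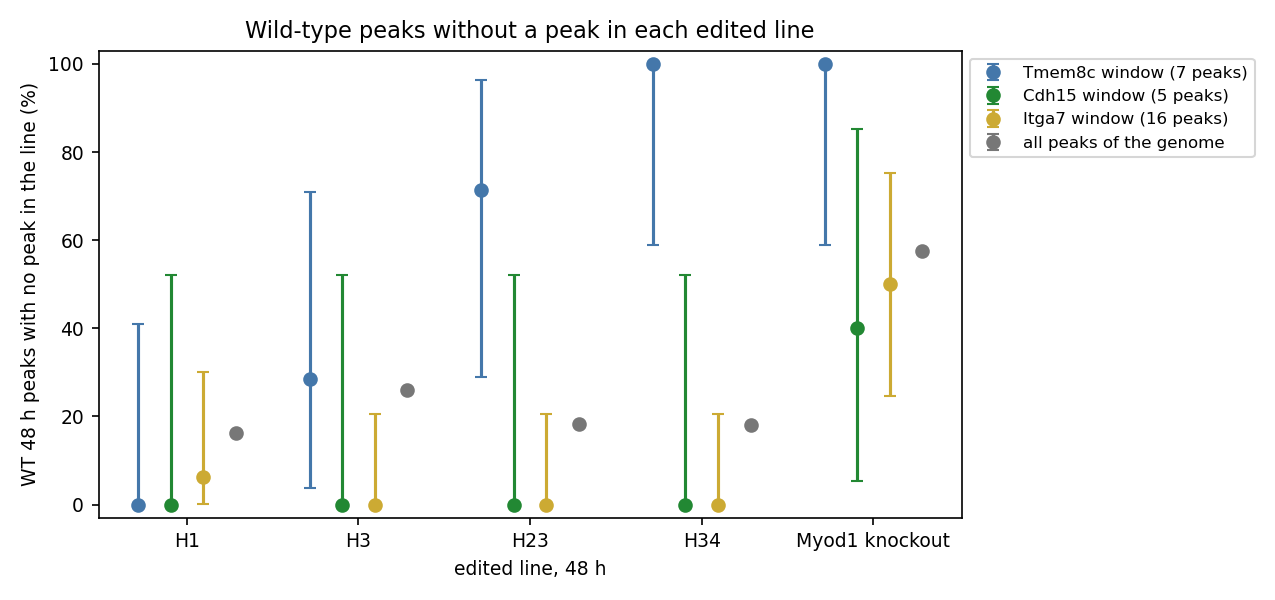
Share of wild-type 48 h peaks with no overlapping peak in each edited line (%), for the Tmem8c, Cdh15 and Itga7 windows and for all 71281 peaks, with exact 95% intervals for counting error. The Tmem8c share is 100% in the H34 line and the Myod1 knockout, and the Cdh15 and Itga7 shares in the hotspot lines are 0 except for 6.25% at Itga7 in the H1 line.

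Over the 4 windows together, 28 wild-type 48 h peaks were followed, and 17 had no peak in the Myod1 knockout (60.7%, 40.6 to 78.5), near the 57.5% of all peaks. In the H1, H3, H23 and H34 lines 1, 2, 5 and 7 had none, or 3.57%, 7.14%, 17.9% and 25.0%, against 16.2%, 26.0%, 18.2% and 18.0% of all peaks. All 7 of the peaks absent in the H34 line, all 5 absent in the H23 line and both absent in the H3 line were at Tmem8c. With lists of equal length, 9 of 26 were absent in the H34 line (34.6%), 6 of them at Tmem8c, 2 at Cdh15 and 1 at Itga7. In the H23 line 7 of 26 were then absent (26.9%), 5 at Tmem8c and 2 at Itga7. Merging the peaks of all 12 libraries gave 50 regions. Of these, 34 had no wild-type peak at any time, and all 34 had a peak in a hotspot line, 22 of them in 1 line. The Myod1 knockout was the only other possible source, and the share over all merged regions was not computed. Counted by peaks, 51.4% (H1), 59.5% (H3), 40.0% (H23) and 45.9% (H34) had no wild-type peak at any time. Over the genome these shares were 37.7%, 31.9%, 42.9% and 38.4%. No region was listed in the Myod1 knockout alone.

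The windows were set by position, and no annotation of mm9 was used. In the GRCm38.p6 gene table the nearest protein-coding genes were Slc2a6 and Adamtsl2 for Tmem8c, Acsf3 and Ankrd11 for Cdh15, Bloc1s1 and Mettl7b for Itga7, and Ssu2 and Oxtr for Cav3. A peak in a window cannot be assigned here to the gene named for it or to such a neighbour.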

How the data were processed

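H3K27ac ChIP-seq peak lists of 12 libraries were used. Peaks were called with MACS2 2.1.0 and the build was mm9, per the submitters' processing notes. How reads were aligned and filtered, the control and the cutoffs are not given in the sources used here. The 6 deposited lists at -24, 0, 6, 12, 24 and 72 h had 5 columns, the last a score of unstated unit. The 6 deposited lists at 48 h had 10 columns with, as the authors deposited them, a score (the −log10 p times 10, without decimals), the fold enrichment, the −log10 p, the −log10 q and the summit. These were the authors' own values per peak and were ranked within a list only. Format and the 48 h time point cannot be told apart. Depth was unknown.

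Computed from them were peaks per window (any overlap of 1 base), covered bases clipped to the window, merged regions, overlaps, Jaccard indices and exact Clopper-Pearson intervals at 95%. Tiles of the windows' own lengths and all other peaks gave the background. Regions were named by a rule: per window the widest, the one with the highest wild-type 48 h −log10 p, up to 3 widest with a wild-type 48 h peak and none in the Myod1 knockout, and up to 3 widest first listed at 6 h or later and present at 48 and 72 h. The members and lists were chosen with earlier results of these data known. Planned lists of cell type markers and of other fusion and membrane genes were not used, since no mm9 annotation was at hand, so the labelled cell type was not checked against its markers. Promoter sequences came from RefSeq (GRCm38.p6). Alternatives are in the closing section. The code was tested on simulated data. Python 3.11.15, numpy 2.4.6, pandas 2.3.3, scipy 1.17.1 and matplotlib 3.10.9 were used.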

Additional observations from a re-analysis of the deposited data

How the results depend on the processing

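Over 38 results, 276 alternatives were computed. The value was labelled the same in 91 alternatives of the 15 results that answer a comparison and in 167 of the others. It was labelled moved in 10 and 8. For shares, the same meant within the interval of the main value. Counts, covered bases and times have no interval and were labelled by the size of the change. Direction against the genome was not followed, since shares of all peaks were not recomputed. Across the alternatives the H23 share over the 4 windows ran from 10.0% to 27.9%, on both sides of the 18.2% of all peaks. The H34 share ran from 15.0% to 34.6%, on both sides of 18.0%. That in the Myod1 knockout ran from 42.9% to 65.1%, on both sides of 57.5%. The H1 and H3 shares each ran from 0 to 14.3%, below the 16.2% and 26.0% of all peaks. No paired analysis was possible because each group had 1 library, and no library could be left out of a group. The share of the 28 wild-type 48 h peaks with no peak in the H1 line became 0 when every list was cut to its 55585 strongest peaks and 0 with wild-type peaks also present at 72 h. That in the H3 line became 0 with peaks within 1 kb joined and 0 with wild-type peaks also present at 72 h. Late-gained regions numbered 0 with equal list lengths, 0 with peaks joined and 2 without the 48 h library, and stable regions 4 with peaks joined, since joining leaves fewer regions. With windows widened by 20 kb, the first Tmem8c peak was at -24 h, all 12 libraries had a Tmem8c peak, 1 library had a Cav3 peak, and 9 of 11 Tmem8c peaks lacked one in the H34 line (81.8%) and 10 of 11 in the Myod1 knockout (90.9%). In the windows as set, all 7 lacked one in both lines under an overlap of 50%, a stricter threshold, and a −log10 p of 4 or more asked of all 48 h lists. The same held for all 7 peaks at 72 h, an alternative chosen after the data were examined. The cause of these moves was not tested. Depth was unknown, so an absent peak does not show absent acetylation.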

Other observations

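The stretch below the Cav3 window was looked at after its values were seen. In the 250 kb below the window, toward lower coordinates, wild-type cells had 12, 18, 17, 21, 19, 7 and 14 peaks from -24 to 72 h. The H1 line had 4, and the H3, H23 and H34 lines and the Myod1 knockout had none. The nearest peak on that side lay 1729 kb from the window in the H3 line, 1394 kb in the H23 line, 1386 kb in the H34 line and 1730 kb in the Myod1 knockout, against 119 kb in wild type at 48 h and in the H1 line. Of 10287 tiles of 250 kb across the genome, 7 (0.068%) had a peak at all 7 wild-type times and in H1 cells but not in the other 4 edited lines, while 5098 had a peak at all 7 wild-type times. The 7 wild-type 48 h peaks there had a −log10 p of 8.0 to 20.5. The Ssu2 gene neighbours Cav3 in the GRCm38.p6 table, but no gene can be placed in this stretch here. Lost DNA and lost acetylation cannot be told apart in a peak list, here or in the empty Tmem8c windows, and the cause was not tested.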
